A study of Mus musculus with 28 samples.

Results

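Myc, the D cyclins Ccnd1, Ccnd2 and Ccnd3, and the CDK inhibitors Cdkn1a, Cdkn1b, Cdkn2a, Cdkn2b, Cdkn2c and Cdkn2d are the 10 genes described here, of 24089 genes in the RNA-seq table of a study on mouse T cells cultured with TGF-β and IL-4. They were chosen by name, with earlier results of these data known, and each of the 10 symbols was found once in the table.

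A resting T cell that is stimulated through its antigen receptor grows and then enters the cell cycle. MYC, a transcription factor, drives the growth, and the D cyclins bind the kinases CDK4 and CDK6, which phosphorylate the retinoblastoma protein and so release E2F factors to switch on genes of DNA replication. CDK inhibitors oppose this step: the INK4 proteins bind CDK4 and CDK6, the CIP/KIP proteins p21 and p27 bind cyclin-CDK complexes more widely, and TGF-β is known for holding many cell types in G1 through lower MYC and higher levels of these inhibitors.

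The RNA came from naïve CD4+ CD62L+ T cells of the spleen and lymph nodes of Tgfbr1 f/f Ert2-cre+ mice on a C57BL/6 background, of both sexes and 8 to 10 weeks old. WT cells came from oil-treated mice and KO cells from mice given tamoxifen, which activates the Cre that deletes Tgfbr1, the gene of TGF-β receptor I. Cells were stimulated with plate-bound anti-CD3 and soluble anti-CD28 in 4 cultures: with no cytokine added (control), with TGF-β (TGF-β1 at 2 ng/ml), with IL-4 (10 ng/ml) or with TGF-β + IL-4, which gives IL-9 producing Th9 cells and is also called the Th9 culture here. This made 8 groups of 3 polyA RNA libraries (Smart-seq2), 24 in all, and DNase-seq added 4 libraries, 1 per genotype for the control and 1 for the Th9 culture, labelled WT3 or KO3. The numbers 1 to 3 in the labels are called mouse 1 to 3 here. The labels do not state that a number is 1 animal in every culture and in both assays. If the libraries are not from separate animals, p-values measure only the spread between these samples. The WT groups carry the same floxed alleles and the same Cre, the Cre is not limited to T cells, and KO cells differ from WT cells by tamoxifen as well as by the deletion, so that the effects of both cannot be told apart. The harvest time of the RNA libraries is not given in the sources used here.

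The headings of the RPKM table conflict with the read counts published with the study, and the columns were therefore read by position in library-number order, the WT columns before the KO columns, each number giving control, TGF-β, IL-4 and the Th9 culture in turn. Of 8 WT libraries with published counts, 8 matched the column at their position, each at 99.85% or more of the genes compared and no other column at more than 85.79%, while 2 matched the column headed with their name and 6 did not. The order of the other 16 columns, 4 of WT mouse 2 and 12 of KO cells, was not checked by any count. Both readings give the same genotype for 24 of 24 columns and the same culture for 8 of 24. RPKM, reads per gene length and per mapped reads of the library, are the authors' values, and total read numbers are not given in the table. The smallest steps between values put the depth of the libraries at 0.575 (KO TGF-β + IL-4, mouse 2) to 1.20 (WT IL-4, mouse 1) of that of WT control mouse 1. WT TGF-β + IL-4 libraries stood at 0.685, 0.598 and 0.724 on this scale, below the WT control libraries at 1.00, 0.910 and 1.03.

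Tgfbr1 itself served as the check of genotype and culture. In WT cells its RPKM was 3.02, 3.25 and 3.31 in mice 1, 2 and 3 in control, 13.9, 14 and 14.5 with TGF-β, 3.69, 3.48 and 3.94 with IL-4, and 17.6, 19.5 and 20.7 with TGF-β + IL-4. In KO cells it was 2.32, 2.55 and 3.05 in control, 2.37, 2.42 and 3.24 with TGF-β, 2.92, 3.75 and 3.17 with IL-4, and 3.45, 5.18 and 3.35 with TGF-β + IL-4. The 6 WT libraries with TGF-β lay above every other library, and no KO library reached them. Without TGF-β, KO values lay close to WT values, with 1 KO control library (3.05) inside the WT control range, and a gene-level RPKM does not separate the floxed segment from the rest of the gene. Itgae, the integrin chain CD103, which TGF-β induces, followed the same division, with a mean RPKM of 8.15 ± 0.995 (SD, n = 3) in the WT Th9 culture and 0.281 ± 0.0679 in the KO one. Il9 did so in part. Its mean RPKM in WT cells was 9.66 ± 1.4 in control, 43.7 ± 3.17 with TGF-β, 15 ± 2.20 with IL-4 and 34.6 ± 1.33 with TGF-β + IL-4. It was lower with both cytokines than with TGF-β (log2 difference -0.33, adjusted p = 0.0063). In KO cells it was 0.369 ± 0.186, 1.85 ± 0.796, 0.872 ± 0.0312 and 1.85 ± 0.751 in the same order, below WT cells in control as well. Gata3, a gene that IL-4 raises, had a mean RPKM of 71.8 ± 3.19 in WT IL-4 and 67.1 ± 7.17 in KO IL-4, against 21.2 ± 1.64 and 8.91 ± 0.583 in the control cultures.

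By RPKM, a level per gene length, the members formed tiers, with the top tier far above the others. Ccnd2 (mean 305 over 24 libraries), Myc (274) and Ccnd3 (250) stood at the top, at ranks 357, 395 and 435 of 24089 genes, and their ranges over the libraries overlapped (249 to 373, 220 to 311 and 193 to 280 RPKM). Cdkn2d (mean 15.1 RPKM, range 10.2 to 20.5) and Cdkn1a (13.1, range 8.62 to 18) came next and overlapped each other. Cdkn1b (2.87, range 1.18 to 5.37) and Cdkn2c (2.15, range 1.24 to 3.87) overlapped in turn. Ccnd1 (0.271), Cdkn2b (0.253) and Cdkn2a (0.0288) had mean RPKM below 1, the minimum for testing, so that 7 of 10 members were tested and these 3 are described by their values, with tests only where no filter was used. In every library the RPKM of Ccnd2, Ccnd3 and Myc (193 or more) exceeded that of every CDK inhibitor of the set (20.5 or less).

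**Figure D1:**
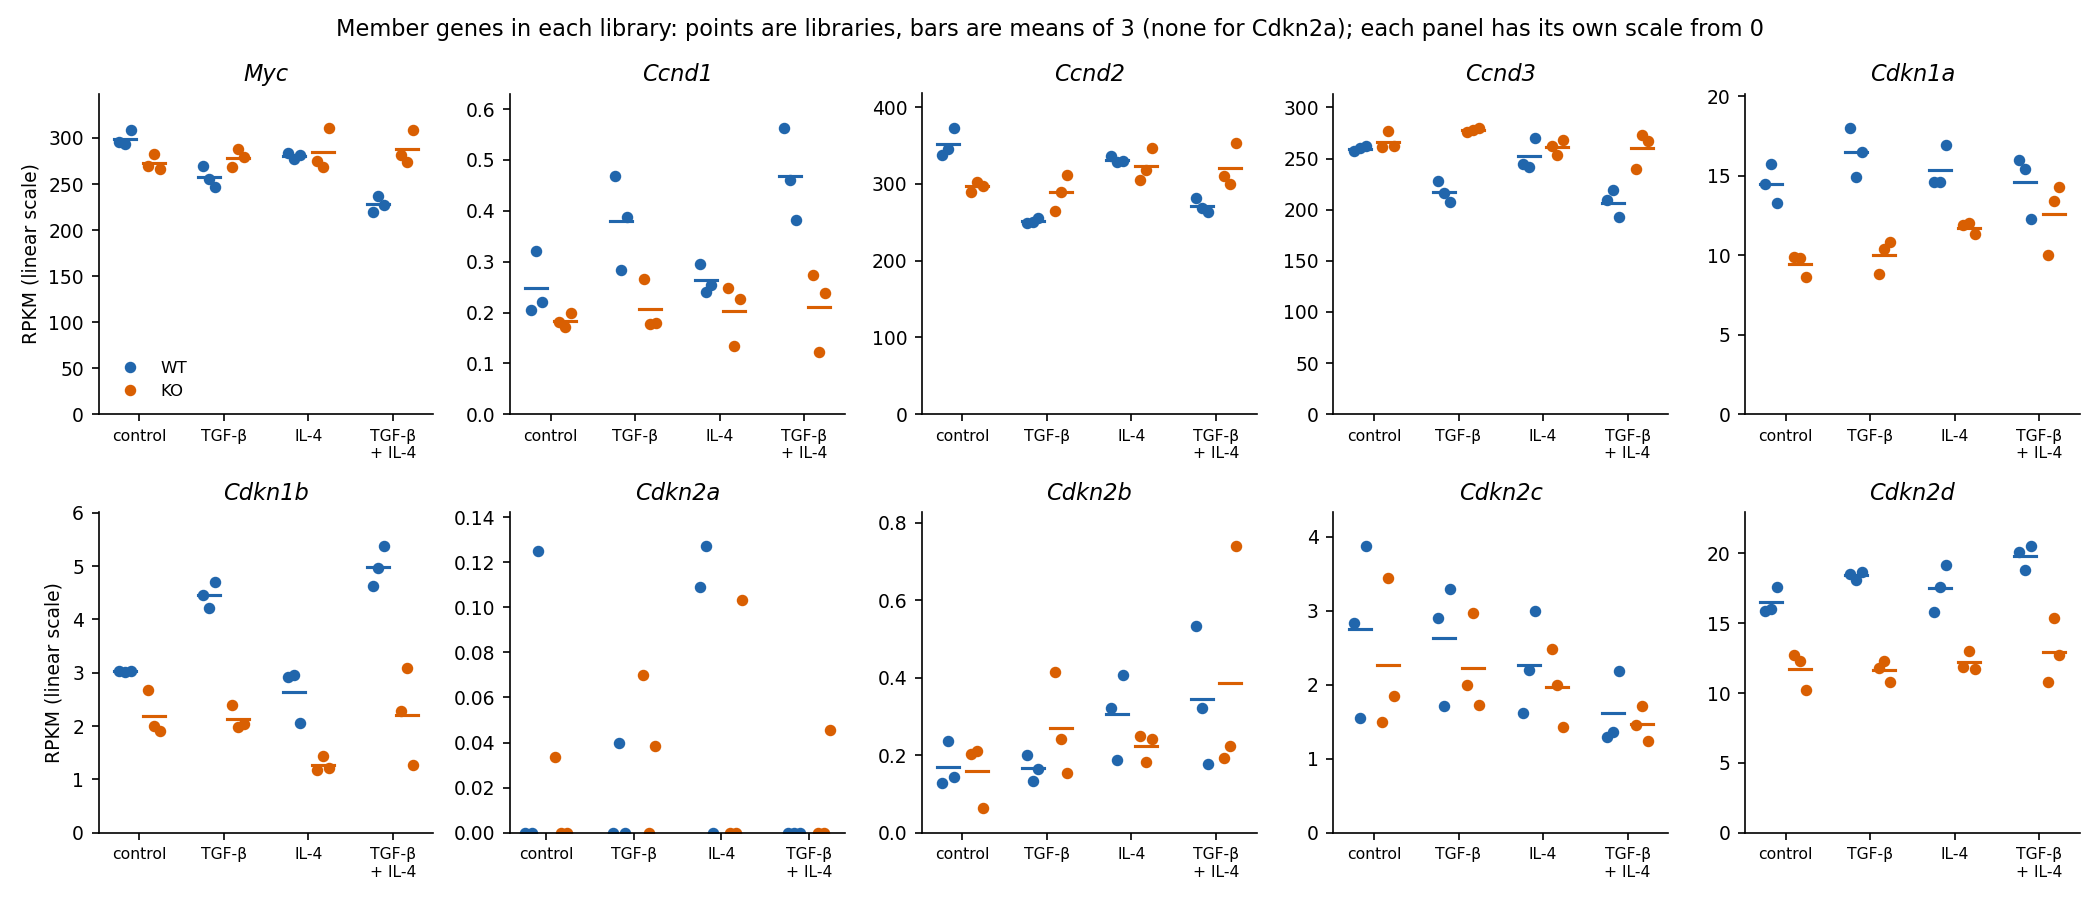
RPKM of the 10 members in each of the 24 libraries, 1 panel per gene, by culture, with WT and KO libraries as separate points and the mean of each group of 3 as a bar (no bar for Cdkn2a). Ccnd2 falls from 338 to 373 RPKM in WT control to 249 to 256 in WT TGF-β, and Cdkn1b runs from 3.02 to 3.04 up to 4.22 to 4.70, while KO values show no such steps.

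Differences were tested with limma on log2(RPKM + 1) across all genes whose RPKM averaged 1 or more, and a difference on this scale understates the change of a gene whose RPKM is low. A member is said to rise or fall here at an adjusted p under 0.01 (Benjamini-Hochberg over all genes tested), a rule chosen after seeing the data, and "both thresholds" means that its fold change was also over 1.5, as planned. Bulk RNA cannot tell fewer cells expressing a gene from less RNA per cell.

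Myc, the growth regulator of the set, was lowest where WT cells had received both cytokines. In WT cells its RPKM was 296, 293 and 309 in control, 270, 255 and 247 with TGF-β, 284, 277 and 281 with IL-4, and 220, 237 and 227 with TGF-β + IL-4. The 3 libraries with both cytokines lay below every other library of the series, and those with TGF-β alone lay below WT control and WT IL-4. In KO cells the RPKM was 270, 283 and 266 in control, 269, 288 and 279 with TGF-β, 275, 269 and 311 with IL-4, and 281, 274 and 309 with TGF-β + IL-4, and these 4 groups overlapped. In WT cells Myc fell by 0.39 on the log2 scale with TGF-β + IL-4 against control (95% interval -0.50 to -0.28, adjusted p = 0.00024) and by 0.30 against IL-4 (adjusted p = 0.00052). Against control, TGF-β alone gave a log2 difference of -0.22 (-0.33 to -0.11), which missed the threshold at an adjusted p of 0.017 (0.0066 to 0.91 over 9 alternatives, under 0.01 in 2 of them, with median-ratio scaling at 0.0081 and with 24 libraries in 1 fit at 0.0066), and IL-4 alone gave -0.09 (adjusted p = 0.33). Without WT mouse 1 the adjusted p was 0.012 against control and 0.015 against IL-4, which lost both calls, with log2 differences of -0.37 and -0.27.

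Myc lies on chromosome 15 (mm9, plus strand, bases 61816946 to 61821929). A DNase I hypersensitive site (DHS, a stretch of open chromatin) covers its start region in 4 of 4 libraries, with its summit 69 bases after the upstream annotated start and a fold enrichment over local background of 3.42 in the WT control list, 2.67 in the WT Th9 list, 2.88 in the KO control list and 3.33 in the KO Th9 list. Ranked by fold enrichment from the highest down, it stood at 94.4%, 99.6%, 97.1% and 93.5% of these lists, among their weakest sites. At a stricter -log10 q of at least 5 it remained in 3 of 4 lists. The WT Th9 list had 4.06. Inside it lies the E2F-type motif GGCGGGAA, shown because the letters of an E2F element between the alternative Myc starts are known from work on repression of MYC by TGF-β. The 30 bases at chr15:61817023-61817052 (mm9, plus strand, in an untranslated exon of Myc) read as follows, with the motif in capitals.
Myc: cgccgacgcttGGCGGGAAaaagaagggag
The match begins 88 bases after the upstream start and 85 bases before the downstream one, the pair of starts being 173 bases apart. Searched on both strands in 201 bases around each summit, the motif was found in 515 of 44298 windows of the WT control list (1.16%) and in 3 of 47 windows near members (6.38%). A match is a description, not a binding site or a cause. A DHS 13635 bases after the start was listed in WT control (fold enrichment 7.64), KO control (3.69) and the KO Th9 culture (4.32). It was not listed in the WT Th9 culture. The Myc sites at -3767 and 1726 bases were in neither Th9 list. The one at -1943 bases was in all lists but KO TGF-β + IL-4. With 1 library per list these differences were not tested. By fold enrichment the sites at -1943 and 1726 bases also ranked low, at 92.9% to 99.8% of the lists that held them.

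Among the D cyclins, the partners of CDK4 and CDK6, Ccnd2 and Ccnd3 supplied nearly all of the RNA, and Ccnd2 alone made up 49.0% to 58.7% of the summed D cyclin RPKM in each library. Ccnd2 RPKM in WT cells was 338, 345 and 373 in control, 249, 251 and 256 with TGF-β, 336, 329 and 330 with IL-4, and 282, 268 and 264 with TGF-β + IL-4. Every WT library with TGF-β lay below every WT library without it, and the values with TGF-β alone were the lower of the pair. In KO cells Ccnd2 RPKM was 290, 303 and 297 in control, 265, 290 and 312 with TGF-β, 305, 318 and 347 with IL-4, and 310, 300 and 353 with TGF-β + IL-4. KO control lay below WT control with no overlap, and KO control and KO TGF-β overlapped. In WT cells Ccnd2 fell by 0.48 with TGF-β (95% interval -0.59 to -0.36, adjusted p = 0.00036), by 0.37 with TGF-β + IL-4 (-0.50 to -0.25, adjusted p = 0.00061) and by 0.29 with TGF-β + IL-4 against IL-4 (adjusted p = 0.00060), all log2 differences. Without WT mouse 1 the log2 difference with TGF-β was -0.50 and its adjusted p 0.018. The test of whether both cytokines differed from the sum of each alone gave 0.19 for Ccnd2 (0.05 to 0.32, adjusted p = 0.070).

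Ccnd3 RPKM in WT cells was 257, 260 and 262 in control, 228, 216 and 208 with TGF-β, 245, 242 and 270 with IL-4, and 209, 219 and 193 with TGF-β + IL-4. The 6 WT libraries with TGF-β were again the lowest, and the cultures with TGF-β and with TGF-β + IL-4 overlapped each other. In KO cells Ccnd3 RPKM was 261, 277 and 262 in control, 276, 278 and 280 with TGF-β, 262, 253 and 268 with IL-4, and 240, 273 and 267 with TGF-β + IL-4, so that every KO library lay above every WT library with TGF-β. In WT cells Ccnd3 fell by 0.26 with TGF-β (95% interval -0.36 to -0.15, adjusted p = 0.0062), by 0.33 with TGF-β + IL-4 (-0.45 to -0.21, adjusted p = 0.0012) and by 0.28 with TGF-β + IL-4 against IL-4 (adjusted p = 0.0045) on the log2 scale. Leaving out WT mouse 1, 2 or 3 lost the call with TGF-β (adjusted p = 0.059, 0.041 and 0.036). It was also lost with no filter on low values (0.012). The log2 differences in these cases lay between -0.30 and -0.22. Against control, the fall with TGF-β + IL-4 had an adjusted p of 0.026 without WT mouse 1, at -0.34. Against IL-4 it had 0.033 without mouse 1, 0.026 without mouse 3, 0.018 with no filter and 0.011 with mouse number as a block. The log2 differences against IL-4 were then -0.31, -0.19, -0.28 and -0.28.

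Ccnd1, the D cyclin of many adherent cell types, was close to absent. Its RPKM in WT cells was 0.205, 0.320 and 0.221 in control, 0.469, 0.283 and 0.387 with TGF-β, 0.296, 0.240 and 0.254 with IL-4, and 0.563, 0.461 and 0.381 with TGF-β + IL-4. The WT libraries with both cytokines held the highest Ccnd1 values but for 0.469 and 0.387 in WT TGF-β, and KO libraries lay between 0.123 and 0.274. It was below the filter on low values. With no filter, Ccnd1 gave log2 differences of 0.23 with TGF-β + IL-4 against control (adjusted p = 0.028) and 0.22 against IL-4 (adjusted p = 0.022) in WT cells, which missed the threshold.

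The Ccnd2 gene (chromosome 6, mm9, minus strand, bases 127075797 to 127101066) has 8 DHSs within 10 kb, and the upstream site at -4675 bases from the start was in 4 of 4 lists, with fold enrichments of 5.89 and 4.68 in the control and Th9 lists of WT cells and 3.80 and 4.12 in those of KO cells. It is shown as the Ccnd2 site that holds a CACGTG E-box, the motif that MYC-MAX dimers recognise. Binding of MYC there, and any part of Myc in the fall of Ccnd2, was not tested. The 201 bases around its summit at chr6:127105641-127105841 (mm9, minus strand, in an intron of 9330179D12Rik) carry the E-box in capitals.
Ccnd2: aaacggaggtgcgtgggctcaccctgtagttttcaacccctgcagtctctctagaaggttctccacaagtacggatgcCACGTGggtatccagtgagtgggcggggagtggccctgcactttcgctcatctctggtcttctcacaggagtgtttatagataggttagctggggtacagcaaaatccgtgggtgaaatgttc
CACGTG was found in 2603 of 44298 windows of the WT control list (5.88%) and in 5 of 47 windows near members (10.6%), searched on both strands. In the WT Th9, KO control and KO Th9 lists its share was 6.46%, 6.38% and 6.79%.

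Of the CIP/KIP inhibitors, Cdkn1b encodes p27, which holds resting T cells out of the cycle and is lost when they are stimulated. In WT cells Cdkn1b RPKM was 3.03, 3.02 and 3.04 in control, 4.46, 4.22 and 4.70 with TGF-β, 2.92, 2.96 and 2.05 with IL-4, and 4.63, 4.97 and 5.37 with TGF-β + IL-4. The WT libraries with TGF-β lay above every other library of the series, and those with IL-4 alone lay below WT control. In KO cells Cdkn1b RPKM was 2.67, 2.01 and 1.91 in control, 2.40, 1.98 and 2.04 with TGF-β, 1.18, 1.44 and 1.21 with IL-4, and 2.29, 3.09 and 1.27 with TGF-β + IL-4. KO IL-4 was the lowest group, and the 3.09 of KO mouse 2 with both cytokines was the only Cdkn1b value of the 12 KO libraries above WT control. In WT cells Cdkn1b rose by 0.44 with TGF-β (95% interval 0.29 to 0.59, adjusted p = 0.0023), by 0.57 with TGF-β + IL-4 (0.40 to 0.74, adjusted p = 0.00033) and by 0.72 with TGF-β + IL-4 against IL-4 (0.47 to 0.97, adjusted p = 0.00074) on the log2 scale, and the last of these passed both thresholds, though not without WT mouse 3, where it was 0.56 (adjusted p = 0.0041). The rise with TGF-β had an adjusted p of 0.061 without WT mouse 1 and 0.027 without mouse 3. With 24 libraries in 1 fit it was 0.039. Log2 differences in these cases were 0.44, 0.41 and 0.44. The log2 difference with TGF-β + IL-4 against control passed both thresholds at a pseudocount of 0.1, where it was 0.70.

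Cdkn1b lies on chromosome 6 (mm9, plus strand, bases 134870419 to 134875531). Its start region, at -41 bases, was a DHS in 4 of 4 lists (fold enrichment 5.76 and 4.76 in the control and Th9 lists of WT cells, 4.19 and 4.09 in those of KO cells). A site at -3090 bases was listed at 3.88, 4.84 and 3.39 in the same order of lists and not in KO TGF-β + IL-4. It is shown as the Cdkn1b site in every list but that one, which is also the shortest of the 4 (27145 DHSs). It holds CAGAC, the short motif that SMAD proteins recognise. Binding there, and any part of the site in the rise of Cdkn1b, was not tested. The 201 bases around the summit at chr6:134867229-134867429 (mm9, plus strand, between genes) carry CAGAC in capitals.
Cdkn1b: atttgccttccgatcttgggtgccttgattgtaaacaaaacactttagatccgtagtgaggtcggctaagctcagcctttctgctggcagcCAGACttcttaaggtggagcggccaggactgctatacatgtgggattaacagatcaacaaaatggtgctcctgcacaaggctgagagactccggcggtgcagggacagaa
So short a motif is common. On either strand it was in 17831 of 44298 windows of the WT control list (40.3%) and in 24 of 47 windows near members (51.1%). In the WT Th9, KO control and KO Th9 lists its share was 41.8%, 40.1% and 39.8%.

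Cdkn1a encodes p21, the CIP/KIP inhibitor that p53 induces, and its RPKM exceeded that of Cdkn1b in every library, Cdkn1b making up 8.19% to 30.4% of the summed RPKM of both. Cdkn1a RPKM in WT cells was 14.5, 15.7 and 13.3 in control, 18, 14.9 and 16.5 with TGF-β, 14.6, 14.6 and 16.9 with IL-4, and 16.0, 15.4 and 12.3 with TGF-β + IL-4. These 4 WT groups overlapped. In KO cells Cdkn1a RPKM was 9.91, 9.80 and 8.62 in control, 8.81, 10.4 and 10.8 with TGF-β, 11.9, 12 and 11.3 with IL-4, and 9.98, 13.4 and 14.3 with TGF-β + IL-4. KO values were below WT values without overlap in the control, TGF-β and IL-4 cultures, and overlapped them with both cytokines. Log2 differences from WT control were 0.17 with TGF-β (adjusted p = 0.22) and 0.00 with TGF-β + IL-4 (adjusted p = 0.99). Its 3 DHSs, at -8757, 2741 and 4553 bases from the start, were each in 4 of 4 lists. At a -log10 q of at least 5 the one at 2741 bases remained in 3.

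The INK4 inhibitors bind CDK4 and CDK6 alone, and Cdkn2d, which encodes p19Ink4d, made up 77.1% to 91.8% of their summed RPKM. Cdkn2d RPKM in WT cells was 15.9, 16.0 and 17.6 in control, 18.5, 18.1 and 18.7 with TGF-β, 15.8, 17.6 and 19.2 with IL-4, and 20.1, 18.8 and 20.5 with TGF-β + IL-4. WT libraries with TGF-β lay above WT control, and WT IL-4 overlapped both. In KO cells Cdkn2d RPKM was 12.7, 12.3 and 10.2 in control, 11.8, 12.3 and 10.8 with TGF-β, 11.9, 13 and 11.7 with IL-4, and 10.8, 15.4 and 12.7 with TGF-β + IL-4. Every KO library lay below every WT library, the nearest being KO mouse 2 with both cytokines at 15.4. The log2 difference of TGF-β + IL-4 from control in WT cells was 0.25 (95% interval 0.11 to 0.39), just outside the threshold at an adjusted p of 0.011, and that of TGF-β was 0.15 (adjusted p = 0.10).

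Cdkn2c, which encodes p18Ink4c, varied widely between mice. Its RPKM in WT cells was 2.84, 1.55 and 3.87 in control, 2.90, 1.71 and 3.30 with TGF-β, 1.62, 2.20 and 3.00 with IL-4, and 1.30, 1.36 and 2.19 with TGF-β + IL-4. KO values ran from 1.24 to 3.44 RPKM, and WT mouse 3 was the highest of the 3 WT mice in every culture. The log2 difference of TGF-β + IL-4 from control was -0.49 (95% interval -0.98 to 0.01, adjusted p = 0.10). With mouse number as a block, this difference of -0.49 had an adjusted p of 0.015.

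Cdkn2b, whose product p15Ink4b is the inhibitor that TGF-β is best known to induce in epithelial cells, had 0.0640 to 0.739 RPKM over the 24 libraries. Its mean RPKM was 0.17 ± 0.0577 (SD, n = 3) in WT control, 0.166 ± 0.0338 in WT TGF-β and 0.345 ± 0.178 in WT TGF-β + IL-4, and 0.159 ± 0.0825, 0.270 ± 0.132 and 0.385 ± 0.307 in the same KO cultures. WT control and WT TGF-β did not differ beyond their spread. With no filter, Cdkn2b gave log2 differences in WT cells of 0.16 with IL-4 and 0.19 with TGF-β + IL-4 against control. Against IL-4, TGF-β + IL-4 gave 0.04 (adjusted p = 0.38, 0.19 and 0.83 in limma, in the order given). The Cdkn2b start region was nevertheless a DHS in 4 of 4 lists, with fold enrichments of 4.69 to 6.54. Cdkn2a, a locus that encodes both p16Ink4a and p19Arf, was at 0 RPKM in 15 of 24 libraries and at most 0.127 in the others, and a gene-level RPKM cannot separate the products.

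Counted over the members, the cytokine responses of WT cells ran as follows. With TGF-β against control, 0 of 7 tested members passed both thresholds in limma and 3 rose or fell at the adjusted p alone (5 at an unadjusted p under 0.05), where 5.71% and 11.1% of 9726 genes did. With IL-4 against control, 0 members passed either rule and 0 had an unadjusted p under 0.05 in limma, against 1.29% and 2.07% of 9680 genes. With TGF-β + IL-4 against control, 0 members passed both thresholds and 4 rose or fell at the adjusted p (5 at an unadjusted p under 0.05), against 9.27% and 27.5% of 9816 genes. These comparisons share the WT control libraries. The members that moved were Ccnd2, Ccnd3 and Cdkn1b in each of the cultures with TGF-β, with Myc added in the culture with both cytokines.

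Each cytokine added to the other was compared as well, with no test of the difference between these additions. IL-4 added to TGF-β moved 0 members by either rule (3 had an unadjusted p under 0.05 in limma), where 3.03% and 9.26% of 9852 genes passed, and the Myc log2 difference was -0.18 (adjusted p = 0.035). TGF-β added to IL-4 moved 4 members at the adjusted p, 3 down and 1 up, and 1 of them, Cdkn1b, past both thresholds, where 29.4% and 9.28% of 9829 genes passed. With TGF-β + IL-4 so many genes passed that 4 of 7 tested members is read against a share of more than 1 in 4. In the test of TGF-β and IL-4 together against their sum, 0 members passed (1 had an unadjusted p under 0.05 in limma), against 1.77% and 3.59% of 9794 genes.

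**Figure D2:**
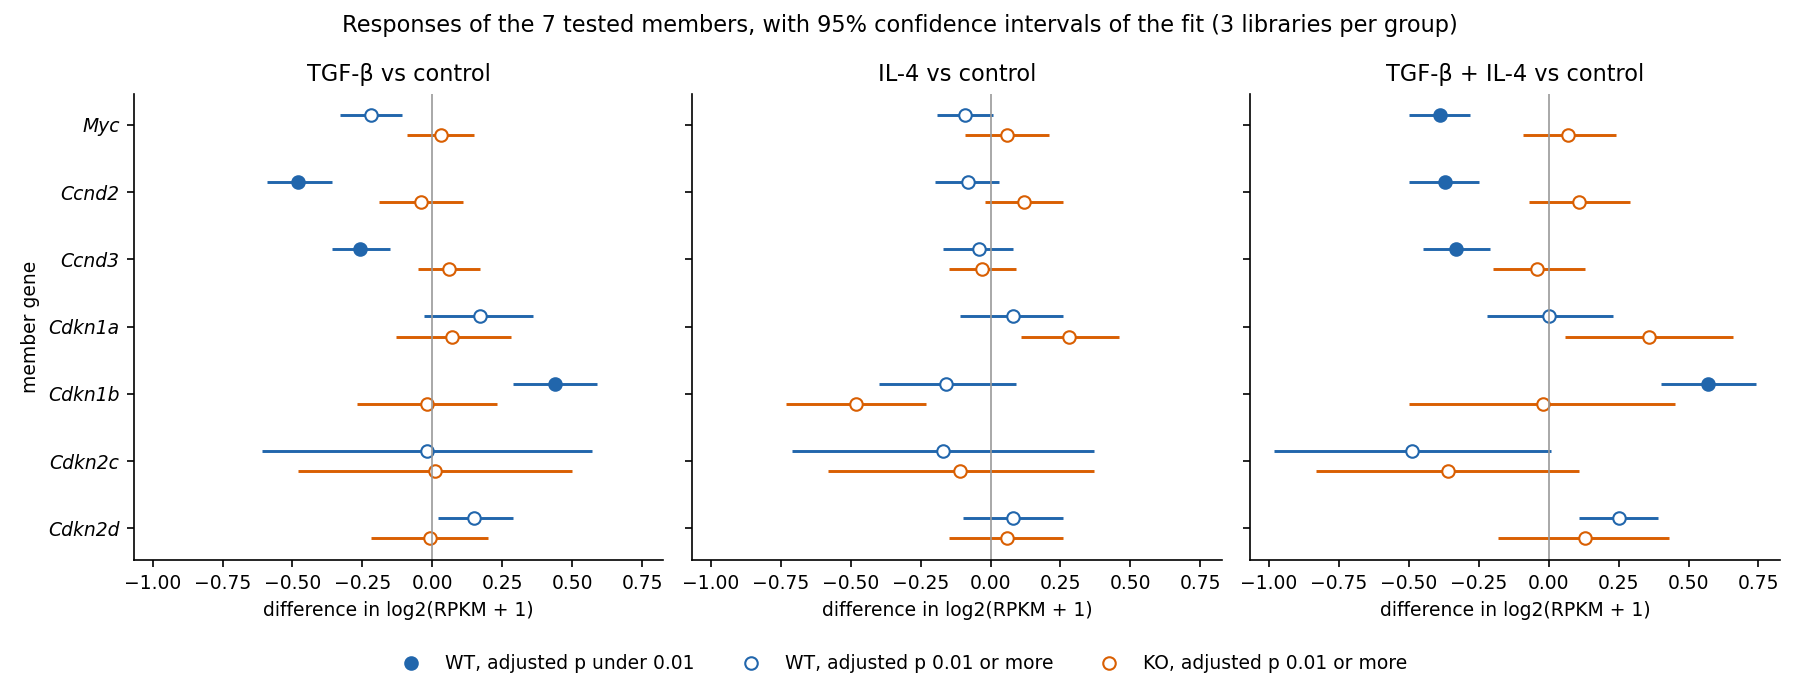
Log2 difference in RPKM + 1 for the 7 tested members for TGF-β, IL-4 and the Th9 culture against control in WT and KO cells, with 95% intervals from limma as bars and filled points for an adjusted p under 0.01. In WT cells Myc stands at -0.39, Ccnd2 at -0.37, Ccnd3 at -0.33 and Cdkn1b at 0.57 with TGF-β + IL-4 against control, while the same KO differences are 0.07, 0.11, -0.04 and -0.02.

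KO cells were compared in the same way to see which responses need TGF-β receptor I. With TGF-β, 0 of 7 members passed either rule and 0 had an unadjusted p under 0.05 in limma, and 1 of 9563 genes passed in all (0.0105% by both thresholds and 0.0105% by the adjusted p). The log2 differences were 0.03 for Myc, -0.04 for Ccnd2, 0.06 for Ccnd3 and -0.02 for Cdkn1b. With IL-4, 0 members passed and 2 had an unadjusted p under 0.05 in limma, against 2.51% and 3.70% of 9600 genes. These 2 were Cdkn1b, at -0.48 (95% interval -0.73 to -0.23, adjusted p = 0.032), and Cdkn1a, at 0.28 (0.11 to 0.46, adjusted p = 0.060). With TGF-β + IL-4, 0 members passed and 1, Cdkn1a at 0.36 (adjusted p = 0.23), had an unadjusted p under 0.05 in limma, against 1.92% and 2.25% of 9653 genes.

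The difference between the genotypes' responses was tested itself, as the KO log2 difference minus the WT one. For TGF-β, 2 of 7 members passed at the adjusted p (4 at an unadjusted p under 0.05) and 0 passed both thresholds in limma, against 6.66% and 4.71% of 9678 genes. They were Ccnd2 at 0.44 (95% interval 0.26 to 0.62, adjusted p = 0.0034) and Ccnd3 at 0.32 (0.18 to 0.45, adjusted p = 0.0040), so that the fall of both cyclins with TGF-β in WT cells differed from the KO differences of -0.04 and 0.06. Myc at 0.24 (adjusted p = 0.034) and Cdkn1b at -0.45 (adjusted p = 0.037) missed the threshold. For TGF-β + IL-4, 2 members passed at the adjusted p (4 at an unadjusted p under 0.05) and 0 passed both thresholds in limma, against 6.16% and 4.18% of 9756 genes. They were Myc at 0.47 (0.29 to 0.64, adjusted p = 0.0022) and Ccnd2 at 0.48 (0.28 to 0.68, adjusted p = 0.0047), while Ccnd3 gave 0.29 (adjusted p = 0.042) and Cdkn1b -0.59 (adjusted p = 0.12). Thus the rise of Cdkn1b passed in WT cells and not in KO cells, and the difference between the genotypes was not shown for it.

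These differences rest on 3 libraries per group, and leaving out 1 mouse lost most of these calls. For TGF-β, Ccnd2 had an adjusted p of 0.019 and 0.016 without KO mouse 2 and 3 and of 0.018, 0.018 and 0.017 without WT mouse 1, 2 and 3, and Ccnd3 had 0.024, 0.011 and 0.026 without KO mouse 1, 2 and 3 and 0.030 and 0.027 without WT mouse 2 and 3. For TGF-β + IL-4, Myc had 0.012 and 0.013 without KO mouse 1 and 3 and 0.024, 0.010 and 0.022 without WT mouse 1, 2 and 3. Ccnd2 had 0.020 and 0.017 without KO mouse 1 and 3 and 0.018, 0.030 and 0.040 without WT mouse 1, 2 and 3. The 4 log2 differences kept their sign in each case and lay between 0.28 and 0.55. With mouse number as a block, which pairs libraries that share a number, Myc and Ccnd2 gave adjusted p of 0.016 and 0.020 for TGF-β + IL-4, and Cdkn1b gave 0.0099 for TGF-β.

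The genotypes were also compared within a culture. In the control culture 1 of 7 members differed at the adjusted p (5 at an unadjusted p under 0.05) and 0 passed both thresholds in limma, against 4.65% and 2.46% of 9644 genes. It was Cdkn1a, lower in KO cells by a log2 difference of -0.57 (95% interval -0.76 to -0.38, adjusted p = 0.0040). Cdkn2d at -0.46 (adjusted p = 0.013), Ccnd2 at -0.24 (adjusted p = 0.030) and Cdkn1b at -0.34 (adjusted p = 0.056) were lower too and missed the threshold. For Cdkn1a the adjusted p was 0.012, 0.013 and 0.013 without KO mouse 1, 2 and 3. It was 0.026 and 0.014 without WT mouse 1 and 2, and 0.016 with no filter. The log2 differences in these cases lay between -0.60 and -0.51.

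With TGF-β + IL-4, 4 of 7 members differed between genotypes at the adjusted p (5 at an unadjusted p under 0.05), against 18.9% of 9851 genes, and 2 passed both thresholds, against 8.44%. Myc was higher in KO cells by 0.34 (95% interval 0.19 to 0.48, adjusted p = 0.0051) and Ccnd3 by 0.33 (0.16 to 0.49, adjusted p = 0.0093). Cdkn1b was lower, at -0.94 (-1.39 to -0.48, adjusted p = 0.0082), and so was Cdkn2d, at -0.59 (-0.85 to -0.32, adjusted p = 0.0064), the pair that passed both thresholds. In the Th9 culture Myc and Ccnd3 were thus higher and a pair of inhibitors lower in KO than in WT cells, with no overlap of the 3 against 3 libraries for any of these 4 genes. Cdkn2d already stood at -0.46 between genotypes in control. Its genotype difference in response to TGF-β + IL-4 was -0.12 (adjusted p = 0.66). Ccnd2, at 0.24 (adjusted p = 0.037), missed the threshold. Ccnd1, below the filter, had lower RPKM in KO libraries (0.274 or less) than in the WT libraries of this culture (0.381 or more), and with no filter it gave -0.28 (adjusted p = 0.029).

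KO mouse 2 in this culture stood apart toward WT values in some genes, with Cdkn1b at 3.09 RPKM, Cdkn2d at 15.4 and Tgfbr1 at 5.18. Its Ccnd3 value was the highest of the KO libraries of this culture, and so the farthest from WT values. KO mouse 2 was also the shallowest library. Without it the adjusted p was 0.0012 for Myc, 0.0083 for Ccnd3, 0.00029 for Cdkn1b and 0.00018 for Cdkn2d, with log2 differences of 0.37, 0.29, -1.13 and -0.71. Without KO mouse 1 the adjusted p was 0.013 for Myc, 0.024 for Cdkn1b and 0.013 for Cdkn2d, and without KO mouse 3 it was 0.014 for Myc, 0.032 for Ccnd3 and 0.023 for Cdkn2d. Without WT mouse 1, 2 or 3 the adjusted p was 0.029, 0.016 and 0.028 for Myc, 0.035, 0.019 and 0.046 for Ccnd3, 0.026, 0.033 and 0.038 for Cdkn1b, and 0.029, 0.021 and 0.032 for Cdkn2d. With any 1 mouse left out, the log2 differences ran from 0.28 to 0.37 for Myc and 0.28 to 0.38 for Ccnd3. They ran from -1.13 to -0.71 for Cdkn1b and -0.71 to -0.47 for Cdkn2d. With no filter on low values the adjusted p was 0.011, 0.020, 0.026 and 0.017 for the 4 genes in the same order. Median-ratio scaling gave 0.015 for Myc and 0.012 for Ccnd3, and a pseudocount of 0.1 gave 0.012 for Cdkn1b.

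Every member call above was lost when the columns were read by their headings: 0 of 91 member tests over the 13 comparisons then passed at the adjusted p and 13 had an unadjusted p under 0.05 in limma, with at most 7 genes past both thresholds in any comparison. Read by headings, the log2 difference between genotypes in control was -0.58 for Cdkn1a, against -0.57 by position. In the Th9 culture Myc had 0.25, Ccnd3 0.29, Cdkn1b -0.95 and Cdkn2d -0.69, against 0.34, 0.33, -0.94 and -0.59 by position. Differences called by position within WT cells then lay between -0.19 and 0.15, and those in the genotype difference in response between 0.08 and 0.35. Every member call, and the size of the WT cytokine responses, thus rests on the reading by position. The published counts match that reading for WT mice 1 and 3.

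Markers of other cells moved with culture and with genotype and are given here by their sums. In the control culture the 4 B cell markers summed to 14, 17.3 and 10.5 RPKM in WT and 5.38, 4.5 and 4.70 in KO cells, with Cd79a the most abundant and 3 of 3 tested genes lower in KO cells. The 4 myeloid markers summed to 5.58, 6.79 and 4.63 against 1.78, 1.32 and 2.71 RPKM (Lyz2 the most abundant in the WT libraries and KO mouse 3, Cd68 in KO mice 1 and 2, 1 of 2 tested lower), and the CD8 markers Cd8a and Cd8b1 to 26.3, 24.8 and 26.9 against 16.7, 14.8 and 15 RPKM (Cd8b1 the most abundant, 2 of 2 lower). The 3 NK markers summed to 3.89, 3.82 and 4.15 against 2.67, 2.70 and 2.86 RPKM (Klrd1 the most abundant in the WT libraries and KO mouse 1, Ncr1 in KO mice 2 and 3, 0 of 2 tested called in limma, 1 at an unadjusted p under 0.05). Of the CD8 markers, Cd8a stood at -1.60 and Cd8b1 at -0.48 between genotypes in control. No marker of these lists was at 0 in a control library. The 5 CD4 T cell markers summed to 975, 922 and 1011 RPKM in WT and 959, 1038 and 1025 in KO control, far above the rest, with Lck the most abundant. The part of these cells in the Cdkn1a and Cdkn2d differences was not tested.

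Within WT cells, the CD8 markers summed to 17.3, 16.6 and 16.6 RPKM with TGF-β, below control, with Cd8b1 at -0.75 (adjusted p = 0.00010) and Cd8a not called. The myeloid markers summed to 19.6, 6.99 and 13 RPKM (Lyz2 the most abundant, 0 of 2 tested called in limma, 1 at an unadjusted p under 0.05) and the B cell markers to 8.07, 9.0 and 9.35 (Cd79a the most abundant, 0 of 3 called in limma, 2 at an unadjusted p under 0.05). The NK markers summed to 2.99, 3.41 and 4.25 RPKM (Klrd1 the most abundant, 0 of 1 tested called in limma, 1 at an unadjusted p under 0.05). The CD4 T cell markers summed to 1020, 1010 and 1012 RPKM (Lck the most abundant), with 1 of 5 higher and 2 lower than in control, Cd28 among the lower at -0.76. With TGF-β + IL-4 against control, Cd8a was higher by 0.49 and Klrd1 by 0.50, 2 of 5 CD4 T cell markers were higher and 2 lower, and Cd8b1 was not called. For B cell and myeloid markers 0 of 3 and 0 of 2 tested were then called in limma, and 1 of each list had an unadjusted p under 0.05. Against IL-4, TGF-β + IL-4 raised Cd8a by 0.49 and 3 of 5 CD4 T cell markers, with Cd8b1 lower at -0.63 and Ncr1 at -0.87. In that comparison 0 of 3 B cell markers were called in limma (1 at an unadjusted p under 0.05). No marker of these lists was at 0 in a WT library, and the part of these cells in the WT member differences was not tested.

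In the Th9 culture the myeloid markers summed to 17.7, 11.1 and 8.13 RPKM in WT cells, against 5.16, 3.40 and 3.37 in WT IL-4 (2 of 2 tested higher with both cytokines) and 5.41, 4.91 and 3.21 in KO TGF-β + IL-4 (0 of 2 called in limma, 2 at an unadjusted p under 0.05, 1 of 4 at 0 in KO mouse 1). B cell markers there summed to 17.4, 6.56 and 12.5 RPKM in WT and 4.83, 11.0 and 12.2 in KO cells (Cd79a the most abundant, 0 of 3 tested called in limma, 1 at an unadjusted p under 0.05). The CD8 markers summed to 25.3, 26.7 and 26.6 RPKM in WT and 26.3, 28.3 and 27.1 in KO cells. Of them, Cd8a was lower in KO cells, at -1.52 (adjusted p = 0.0015), and Cd8b1 higher, at 0.47 (adjusted p = 0.0014 in limma). The NK markers summed to 4.18, 4.83 and 4.84 RPKM in WT and 4.13, 6.55 and 3.79 in KO cells (1 of 2 tested higher and 1 lower). The CD4 T cell markers summed to 1165, 1163 and 1205 RPKM in WT and 853, 978 and 899 in KO cells (1 of 5 higher and 2 lower), with Lck the most abundant. In the tests of the genotype difference in response, Cd8b1 (0.67, adjusted p = 0.00026) and Cd28 (0.66, adjusted p = 0.0031) passed for TGF-β, and Cd8b1 (0.94, adjusted p = 3.3e-05), Ncr1 (0.88) and Cd3e (-0.53) for TGF-β + IL-4. B cell and myeloid markers passed at 0 of 3 and 0 of 2 tested in limma in both of these tests (2 and 0 at an unadjusted p under 0.05). The part of any of these markers in the Myc, cyclin, Cdkn1b and Cdkn2d differences was not tested.

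The neighbours of the members in the pathway were followed through 6 lists, also chosen with earlier results of these data known, so that their counts are a description. The MYC network, the partners and antagonists that share MAX, comes first. The share of all genes tested that passed at the adjusted p, given beside the counts, was 27.5% in WT TGF-β + IL-4 against control, 29.4% against IL-4, 11.1% with TGF-β alone, 2.25% in KO TGF-β + IL-4 and 18.9% between genotypes in the Th9 culture. In WT TGF-β + IL-4 against control 3 of the 7 tested genes of the network rose and 0 fell, against 27.5% of all genes, with a median log2 difference of 0.26 against 0.03 for all genes tested. They were Mxd4 (1.64, adjusted p = 7.9e-06) and Mxd1 (0.43), which encode MAX-binding repressors that compete with MYC, and Max itself (0.44). Mxd4 RPKM was 2.03, 1.31 and 1.72 in WT control and 7.0, 6.78 and 8.20 in WT TGF-β + IL-4, against 0.902, 1.42 and 1.21 and 1.54, 1.59 and 1.98 in the same KO cultures. The WT groups stood well apart and the KO groups lay close together, and the genotype difference in the response of Mxd4 was -1.32 (adjusted p = 0.00033). With TGF-β alone 1 of 7 rose in WT cells (11.1% of all genes passed), again Mxd4 (1.03, adjusted p = 0.00079). In KO TGF-β + IL-4 against control 1 of 7 rose (2.25% of all genes passed), Mxd1 (0.99, adjusted p = 0.0016).

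Of the MYC target genes of ribosome production, polyamine synthesis and growth, 5 of 14 tested fell, 0 rose and 9 were not called in WT TGF-β + IL-4 against control, where 27.5% of all genes passed (median -0.20 against 0.03), with Rrp9 at -0.53, the spermidine synthase gene Srm at -0.52 and the nucleolar genes Nop56 and Ncl at -0.34 and -0.26. Against IL-4, 9 of 14 fell and 0 rose, against 29.4% of all genes (median -0.25 against 0.02), among them Odc1, the entry enzyme of polyamine synthesis, at -0.79. With TGF-β alone 1 of 14 fell (11.1% of all genes passed), Rrp9 at -0.28, and 6 had an unadjusted p under 0.05. In KO TGF-β + IL-4 against control 0 passed and 0 had an unadjusted p under 0.05 in limma (median 0.00 against 0.01). Compared between genotypes in the Th9 culture, 6 of 14 were higher in KO cells and 0 lower, against 18.9% of all genes (median 0.37 against 0.01), and Srm and Rrp9 passed the test of the genotype difference in response at 0.58 and 0.54.

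Of the proliferation genes, which mark cells in S phase and mitosis, 3 of 12 fell and 0 rose in WT TGF-β + IL-4 against control, no larger a share than the 27.5% of all genes that passed (median -0.16 against 0.03): Ccnb1 at -0.67, Cdk1 at -0.43 and Top2a at -0.23. Against IL-4, 6 of 12 fell and 0 rose, against 29.4% of all genes (median -0.24 against 0.02). With IL-4 alone against control, 11 of 12 of these genes were above 0 (median 0.10 against 0.01). Of them, 0 were then called in limma and 6 had an unadjusted p under 0.05. In the test of both cytokines against their sum 3 of 12 were lower, against 3.59%. With TGF-β alone 0 passed and 4 had an unadjusted p under 0.05 in limma, and in KO TGF-β + IL-4 0 passed and 2 had an unadjusted p under 0.05. Between genotypes in the Th9 culture 6 of 12 were higher in KO cells and 0 lower, against 18.9% of all genes (median 0.42 against 0.01), with Ccnb1 at 0.97 and Ccna2 at 0.83. In the control culture KO cells already had a median of 0.19 against 0.02, with 0 of 12 called in limma and 9 at an unadjusted p under 0.05. The genotype difference in response to TGF-β + IL-4 passed for 3 of 12, against 6.16% of all genes (median 0.25 against 0.00).

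Of the G1 kinases, E cyclins and pocket proteins, which act with and after the D cyclins, 1 of 10 tested rose and 2 fell in WT TGF-β + IL-4 against control, close to the 27.5% of all genes (median -0.09 against 0.03). The E cyclin gene Ccne1 fell by 0.47 and Cdk2, its kinase, by 0.29, while Rbl2, the pocket protein p130 of resting cells, rose by 0.59. Between genotypes in the Th9 culture 5 of 10 were higher in KO cells and 0 lower, against 18.9% of all genes, with Ccne1 at 0.74. For p27 turnover, the ubiquitin ligase parts that degrade p27 protein, 0 of 6 passed in WT TGF-β + IL-4 against control and 2 had an unadjusted p under 0.05 in limma. Between genotypes in the Th9 culture 2 of 6 were higher in KO cells and 0 lower (Cul1 at 0.40 and Cks1b at 0.30), against 18.9% of all genes (median 0.23 against 0.01). Of the p53 target genes, listed because p53 induces Cdkn1a, 2 of 10 rose (Trp53inp1 at 1.53 and Pmaip1 at 0.50) and 2 fell (Aen at -0.41 and Bax at -0.35), against 27.5% of all genes and with a median of 0.10 against 0.03. Between genotypes in the Th9 culture 2 of 10 p53 target genes were higher in KO cells and 3 lower, against 18.9% of all genes. In the control culture 4.65% of all genes passed between genotypes. There 0 of 14 MYC target genes and 0 of 10 genes of the G1 list passed in limma. For p27 turnover and the p53 target genes it was 0 of 6 and 0 of 9 tested. An unadjusted p under 0.05 was found for 5, 4, 2 and 2 genes of these lists in that order. In KO TGF-β + IL-4 against control 0 genes of these last 3 lists passed in limma, and 1 of 10, 1 of 6 and 2 of 9 tested had an unadjusted p under 0.05.

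**Figure D3:**
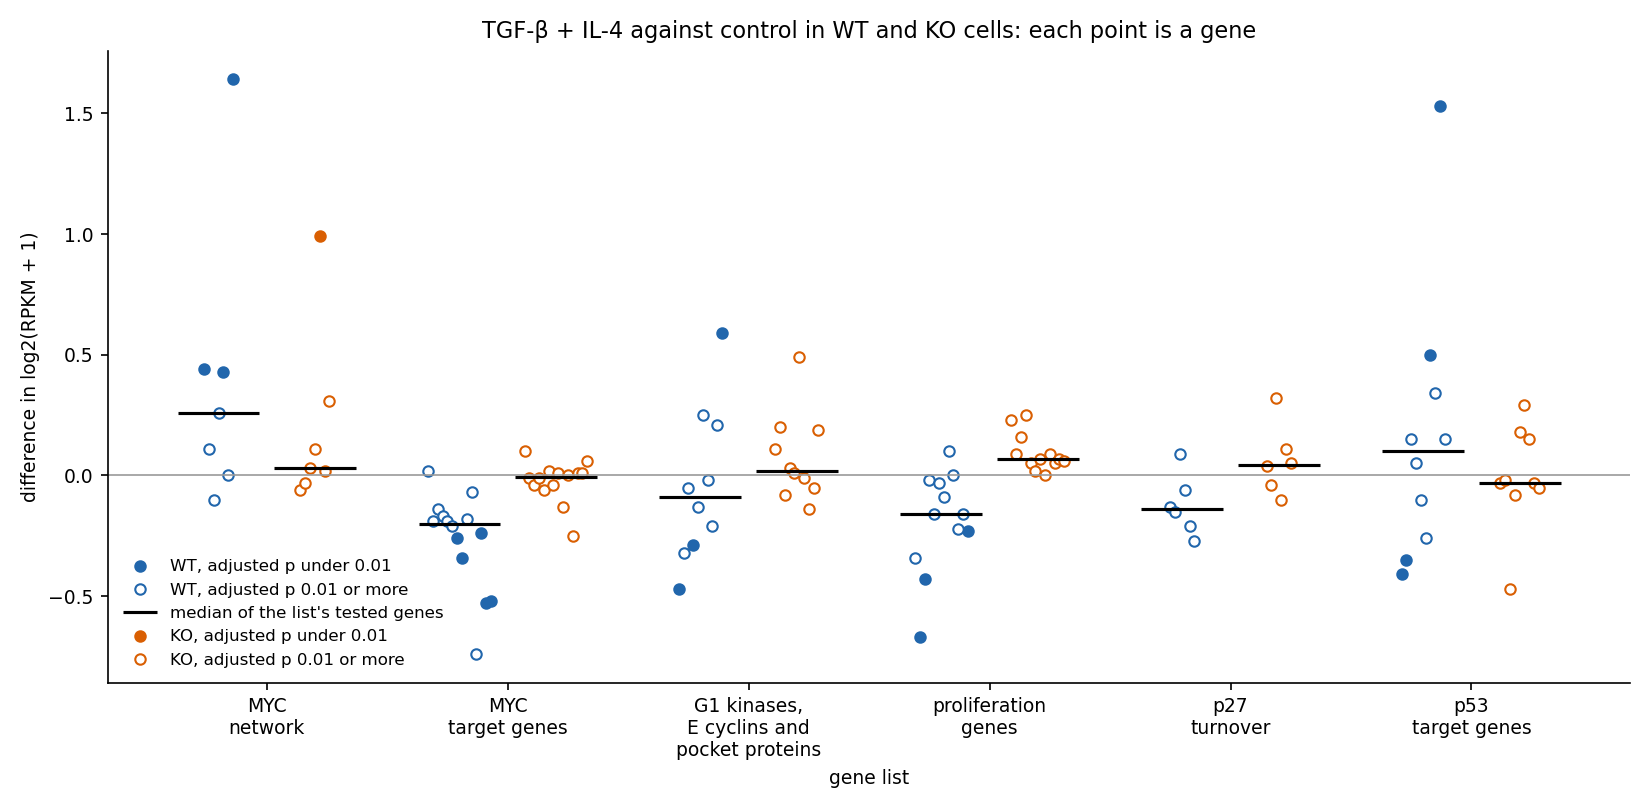
Log2 difference in RPKM + 1 of each tested gene of the 6 lists, for TGF-β + IL-4 against control in WT and in KO cells, with filled points for an adjusted p under 0.01 and a bar at each list's median. In WT cells the MYC target genes have a median of -0.20 and the MYC network one of 0.26, and in KO cells these medians are 0.00 and 0.03.

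Over the 24 libraries, the genes most like each tested member were sought among 9717 genes by Pearson correlation of log2(RPKM + 1), given as a description since the libraries fall into groups. For Myc they were Rrp9 (r = 0.93), Bysl (0.93) and Nudc (0.92), for Ccnd3 Dnajc11 (0.94), Grwd1 (0.93) and Pwp2 (0.93), and for Ccnd2 Akt2 (0.89), Cd82 (0.89) and Gzmb (0.86). Rrp9, Bysl and Pwp2 act in ribosome production. For Cdkn1b they were Flt3l, Plec and Prdm2 (0.94 each), for Cdkn2d Nkg7 (0.95), Cd8a (0.95) and Dgcr6 (0.94), for Cdkn1a Syngr1 (0.88), Fscn1 (0.88) and Csrnp1 (0.87), and for Cdkn2c Ptpn9, Edem1 and Ndfip2 (0.92 each). Nkg7 and Cd8a are genes of cytotoxic cells. Among the members, n = 24, Myc went with Ccnd3 (r = 0.78) and Ccnd2 (0.76) and against Cdkn1b (-0.68), Ccnd3 went against Cdkn1b (-0.79), and Cdkn2d went with Cdkn1a (0.84) and Cdkn1b (0.79).

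The DNase-seq peak lists place open chromatin around the members. They hold 44298 DHSs in WT control (17.2 Mb), 33880 in the WT Th9 culture (13.3 Mb), 33665 in KO control (13.2 Mb) and 27145 in the KO Th9 culture (10.3 Mb). The lists differ in length and rest on 1 library each, and no difference between them was tested. Near the members, within the gene or 10 kb of it, 47 sites were listed at least once, 42, 30, 35 and 27 of them in the same order of lists. Of the 47, 22 (46.8%) were in 4 of 4 lists and 8 (17%) in WT control alone, against 43.2% and 17.8% of the 50176 DHSs joined over the whole lists. The DHS 14410 bases after the Cdkn2b start is the one at -1974 bases of Cdkn2a, counted for both. The site at the Ccnd2 start, at 7 bases, was in the KO Th9 list alone (fold enrichment 3.43). Ccnd3, with a gene of 94633 bases, had 16 sites, 9 of them in 4 of 4 lists, and its start at -3 bases was among them (fold enrichment 3.62, 3.84, 4.04 and 4.31). Ccnd1, although nearly silent, had 1 site in 4 of 4 lists, 2240 bases after its start (8.58, 5.50, 4.67 and 4.72). Cdkn2d had 1 site, in an intron of the neighbouring Kri1 and in all lists but KO TGF-β + IL-4 (at a -log10 q of at least 5, in WT TGF-β + IL-4 alone), and Cdkn2c had 7, with the start region at 358 bases in 4 of 4 lists.

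**Figure D4:**
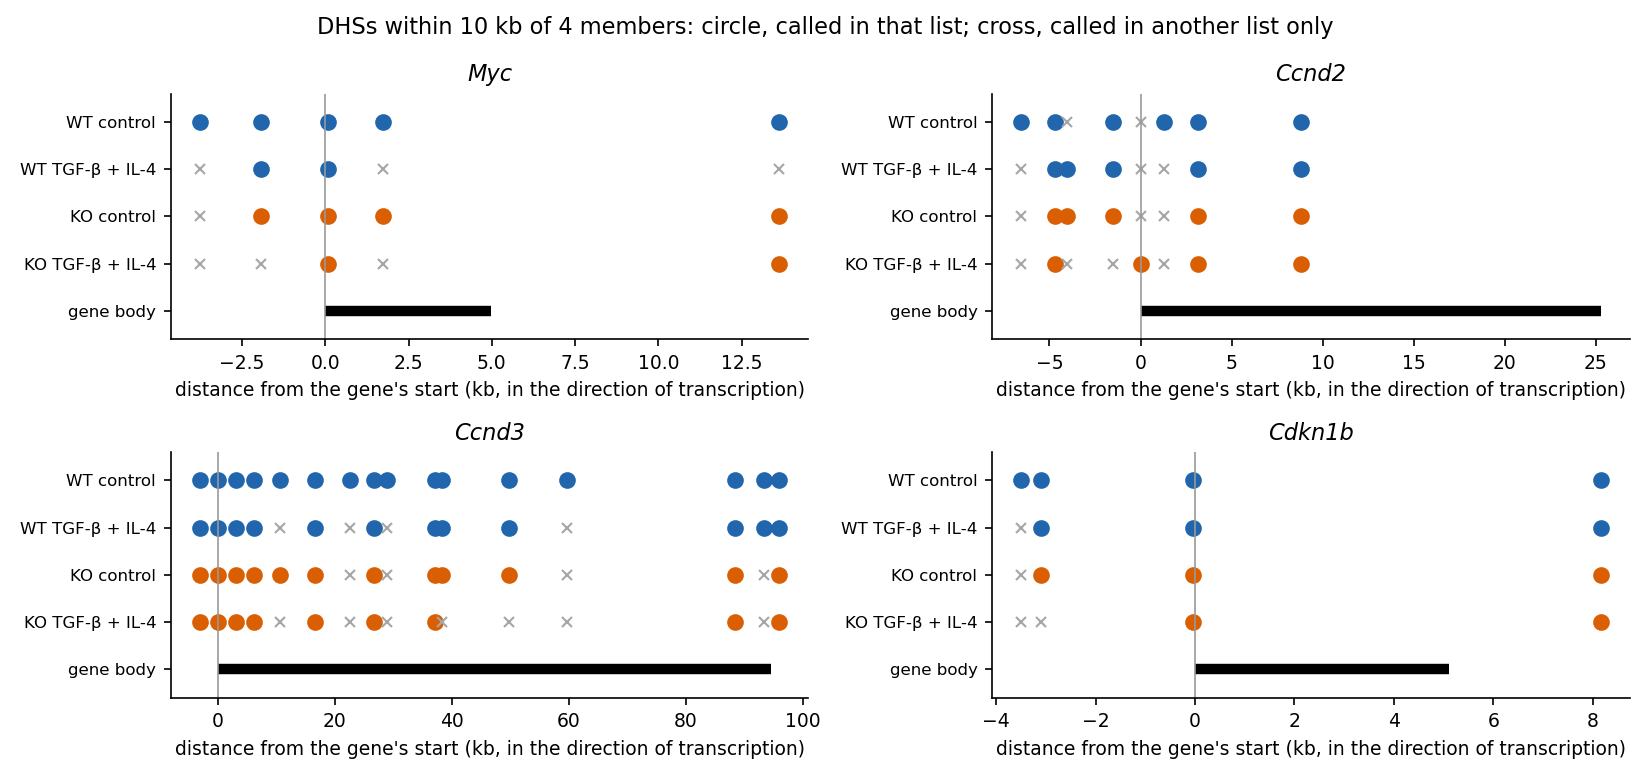
DHSs within 10 kb of Myc, Ccnd2, Ccnd3 and Cdkn1b in the 4 DNase-seq lists, by the distance of their summits from the start of each gene in kb, with circles for sites in a list and crosses for sites in another list only. Sites at the starts of Myc (69 bases), Ccnd3 (-3) and Cdkn1b (-41) are in 4 of 4 lists. The site at the Ccnd2 start (7 bases) is in KO TGF-β + IL-4 alone. The Myc site at 13635 bases is missing from WT TGF-β + IL-4.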

How the data were processed

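Reads were mapped by the authors with Bowtie2 (mm9) and filtered for mapping quality and duplicates, and the authors deposited RPKM per gene for 24 RNA libraries. For 4 DNase-seq libraries the authors deposited MACS2 peaks with a ratio (fold enrichment) and the -log10 p and -log10 q of each peak. Tool versions are not given in the sources used here. RPKM columns were checked against the read counts published with the study and read by position. limma 3.58.1 in R 4.3.3 was fitted with a trend on log2(RPKM + 1), a pseudocount of 1, to genes whose RPKM averaged 1 or more in the libraries of each fit, with the compared groups alone. Calls were made at an adjusted p under 0.01 over all genes and a fold change over 1.5. The same adjusted p with no fold minimum was chosen after seeing the data. The members and lists were chosen with earlier results of these data known. All 10 members are named. List genes past the test could be named, and some of them are, with the 3 genes most correlated with each tested member. DHSs were joined across lists at an overlap of 1 base and read with pandas 2.3.3 and numpy 2.4.6 in Python 3.11.15, and sequences came from the mm9 genome. Alternatives were column headings, a pseudocount of 0.1, no filter, median-ratio scaling, 24 libraries in 1 fit, mouse number as a block, each mouse left out, and other DHS windows and thresholds.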

Additional observations from a re-analysis of the deposited data

Results flagged for a closer look

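For 4 member responses the difference between KO and WT cells passed the test of that difference itself. The KO minus WT log2 difference in the response to TGF-β was 0.44 for Ccnd2 and 0.32 for Ccnd3, and that in the response to TGF-β + IL-4 was 0.47 for Myc and 0.48 for Ccnd2. Each of the 4 calls was lost in 5 of the 6 cases in which 1 mouse was left out. With mouse number as a block, which pairs libraries that share a number, the calls for TGF-β + IL-4 were lost (adjusted p = 0.016 for Myc and 0.020 for Ccnd2) and those for TGF-β kept (0.00098 for Ccnd2 and 0.0042 for Ccnd3). The adjusted p ranged over 12 alternatives from 0.00098 to 0.86 for Ccnd2 and 0.0017 to 0.88 for Ccnd3 with TGF-β, and from 0.00019 to 1.00 for Myc and 0.00055 to 1.00 for Ccnd2 with TGF-β + IL-4. The TGF-β and TGF-β + IL-4 tests share the control libraries of both genotypes. Tamoxifen and the deletion cannot be told apart in these values.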

How the results depend on the processing

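With total read numbers unknown and 3 libraries per group, the data limit what can be said of members below 1 RPKM and of small differences. The 3 members below it were tested only with no filter, where 0 of 39 differences passed in limma (lowest adjusted p 0.022) and 5 had an unadjusted p under 0.05. Of 889 member differences under an alternative, 794 kept their direction and side of the threshold or were uncalled with either sign (53 of them with the other sign), 88 lost their call, 7 gained 1 and 0 called differences reversed. The 7 were Myc in WT TGF-β against control with median-ratio scaling (adjusted p = 0.0081) and with 24 libraries in 1 fit (0.0066), Ccnd2 (0.0097) and Cdkn2d (0.0020) for KO against WT in control and Ccnd2 with TGF-β + IL-4 (0.0041) in that same fit, Ccnd2 with TGF-β + IL-4 without KO mouse 2 (0.0078), and Cdkn1b for the genotype difference for TGF-β with mouse number as a block (0.0099). Ccnd2 and Cdkn1b in WT TGF-β + IL-4, against control and against IL-4, kept their calls under each alternative run except the headings. Unless given, the cause of a change was not tested. The median log2 difference of all genes moved by at most 0.05 from its reported value under the alternatives run.

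Read by headings, genes past both thresholds numbered 7 for KO against WT in control and 0 in the other 12 comparisons. At the adjusted p, members then numbered 0 in every comparison. With no filter, more genes were tested, and genes past both thresholds numbered 83 for WT IL-4, 194 for TGF-β + IL-4 against TGF-β, 106 for the WT interaction, and 0, 154 and 99 for KO cells with TGF-β, with IL-4 and with both. Members at the adjusted p were then 0 for KO against WT in control and with TGF-β + IL-4, where 0 passed both thresholds. Median-ratio scaling gave 0 genes for KO TGF-β, and 1 member past both thresholds and 2 at the adjusted p for KO against WT with TGF-β + IL-4. The fit of 24 libraries gave 6 genes for KO TGF-β, 278 for KO TGF-β + IL-4 and 3 members at the adjusted p for KO against WT in control. A pseudocount of 0.1 gave 1 member past both thresholds for WT TGF-β + IL-4 against control and for each genotype comparison. With mouse number as a block, which pairs libraries that share a number, KO TGF-β had 2 genes, KO TGF-β + IL-4 had 88 and the genotype difference for TGF-β + IL-4 had 0 members at the adjusted p. Deviations from group means correlated between libraries of 1 number at a median of 0.06 in WT and 0.19 in KO cells, against -0.03 and -0.12 between numbers. These correlations ran from -0.09 to 0.55 and from -0.30 to 0.42 for libraries of 1 number. Since the deviations of each group sum to 0, the values between numbers depend on those within a number and are no separate reference. The block was not run for KO against WT, whose mice differ.

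The adjusted p alone, chosen after seeing the data, gave 1080 genes for WT TGF-β, 200 for IL-4, 2700 for TGF-β + IL-4, 912 for TGF-β + IL-4 against TGF-β, 2890 against IL-4, 352 for the interaction, and 448 and 1859 for KO against WT in control and with TGF-β + IL-4. DHSs near members numbered 5, 5, 5 and 7 within 1 kb of a start and 81, 55, 63 and 44 within 50 kb, in the order control and TGF-β + IL-4 of WT cells, then the same of KO cells. At a -log10 q of at least 5 they numbered 37, 26, 31 and 25 in that order, and the sites at the Myc start, at 38411 and 49720 bases of Ccnd3 and at 2741 bases of Cdkn1a were the 4 lost from WT cells with both cytokines.

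With each mouse left out in turn, which leaves 2 libraries in a group, genes past both thresholds ranged from 294 to 561 for WT TGF-β, 12 to 106 for IL-4, 143 to 452 for TGF-β + IL-4 against TGF-β, 0 to 91 for the WT interaction, 121 to 176 for KO IL-4, 32 to 175 for KO TGF-β + IL-4 and 261 to 678 for the genotype difference for TGF-β + IL-4, and were 0 each time for KO TGF-β. Members past both thresholds ranged from 0 to 1 for WT TGF-β + IL-4 against control and against IL-4 and for KO against WT in control, and from 0 to 2 for KO against WT with TGF-β + IL-4. Members at the adjusted p ranged from 0 to 2 for WT TGF-β, 2 to 4 for TGF-β + IL-4 against control and against IL-4, 0 to 1 for KO against WT in control, 0 to 5 with TGF-β + IL-4, 0 to 1 for the genotype difference for TGF-β and 0 to 2 for that for TGF-β + IL-4. For comparisons within WT cells, leaving out WT mouse 2 is also the analysis of the libraries that the published counts identify, and no count identifies the 12 KO columns.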

Other observations

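KO mouse 2 with TGF-β + IL-4 differed from the other KO libraries of its culture in genes beyond the members. Trp53inp1 had 3.73 RPKM there, against 1.07 and 0.926 in KO mice 1 and 3 and 5.86, 6.01 and 7.45 in WT cells of the same culture. Without this library Ccnd2 also passed for KO against WT with TGF-β + IL-4.

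Mxd1 had a log2 difference of -1.09 between KO and WT control (adjusted p = 0.00011), and in KO cells it rose by 0.78 with IL-4 (adjusted p = 0.0017).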
